A study of Arabidopsis thaliana with 4 samples.

Results

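The genes examined are 10 cytokinin genes of Arabidopsis thaliana: 3 isopentenyltransferases that make the hormone, IPT3 (AT3G63110), IPT5 (AT5G19040) and IPT7 (AT3G23630), and 7 type-A response regulators, ARR4 (AT1G10470), ARR5 (AT3G48100), ARR6 (AT5G62920), ARR7 (AT1G19050), ARR9 (AT3G57040), ARR15 (AT1G74890) and ARR16 (AT2G40670). They were chosen by locus name and not by a cut on level, though with earlier results of these data known. The deposited table holds 25819 genes, and all 10 are in it. RNA-seq libraries were made from whole Columbia-0 plantlets 21 days old, either wild type (WT) or larp1 mutant, after 15 min in liquid medium at 20 °C or at 38 °C. Each of the 4 combinations of genotype and temperature has 1 library, from a pool of 6 to 8 plantlets. The labels call the mutant larp1 and describe neither its allele nor how it was made.

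Cytokinins are adenine-derived hormones that promote cell division in the shoot, restrain growth of the root meristem and delay leaf senescence. Isopentenyltransferases attach the side chain to adenine nucleotides, the entry step of synthesis; hydroxylases and LOG enzymes then give the active forms, and cytokinin oxidases (CKX) break them down. Histidine kinase receptors (AHK) pass phosphate through carrier proteins (AHP) to type-B response regulators, which are transcription factors. Type-A response regulators are switched on by type-B factors within minutes of hormone supply and feed back to dampen the pathway, so their transcripts are widely used as a readout of cytokinin response.

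A gene's level is given in RPM, the reads of its distinct exon entries scaled by library depth, with no gene length applied. Differences are therefore given for 1 gene between libraries; where a gene is said to have the highest RPM of its list, or a share of a sum, that is a share of reads and not of transcripts. Depth ran from 42608700 reads in WT at 38 °C to 74419200 in larp1 at 20 °C. Brackets hold 95% intervals for counting error alone. With 1 library a group there is no test and no replicate check, so each difference is one between libraries. Genes with 50 reads in either library were compared; a call needed a difference of at least 2-fold with an interval that leaves out equality. As a check of the labels, LARP1A (AT5G21160), which encodes the La-related protein, had 37.1 RPM in WT at 20 °C against 9.21 RPM in the mutant, so transcript reads of it remain. HSP101 (AT1G74310), a heat-induced chaperone gene, went from 43.2 to 10466 RPM with heat in WT. In these whole-plantlet libraries, fewer cells of a type and less RNA per cell cannot be told apart.

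All 10 genes had lower values at 38 °C than at 20 °C, in WT and again in larp1. Most genes did so under RPM: 15913 of 19387 compared in WT and 16299 of 20477 in larp1 had a log2 ratio below 0. In WT, 8 of the 10 held enough reads to be compared, and all 8 were called lower, beside 25.0% of all 19387 genes compared. In larp1, 9 were compared and 8 were called lower, beside 19.8% of 20477 genes. The median log2 ratio of the members compared was -2.21 in WT and -1.94 in larp1, against -0.51 and -0.43 over all genes compared. In WT 2 of the 8, and in larp1 4 of the 9, reached the minimum through the 20 °C library alone; such genes enter only because they are high there, so these counts and medians describe the members and support nothing further. The 7 type-A regulators have 2 to 6 distinct entries; among genes of that size 26.1% were called lower and 4.04% higher in WT, and 21.0% and 3.94% in larp1, while 6 of the 6 regulators compared were lower in each genotype.

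**Figure D1:**
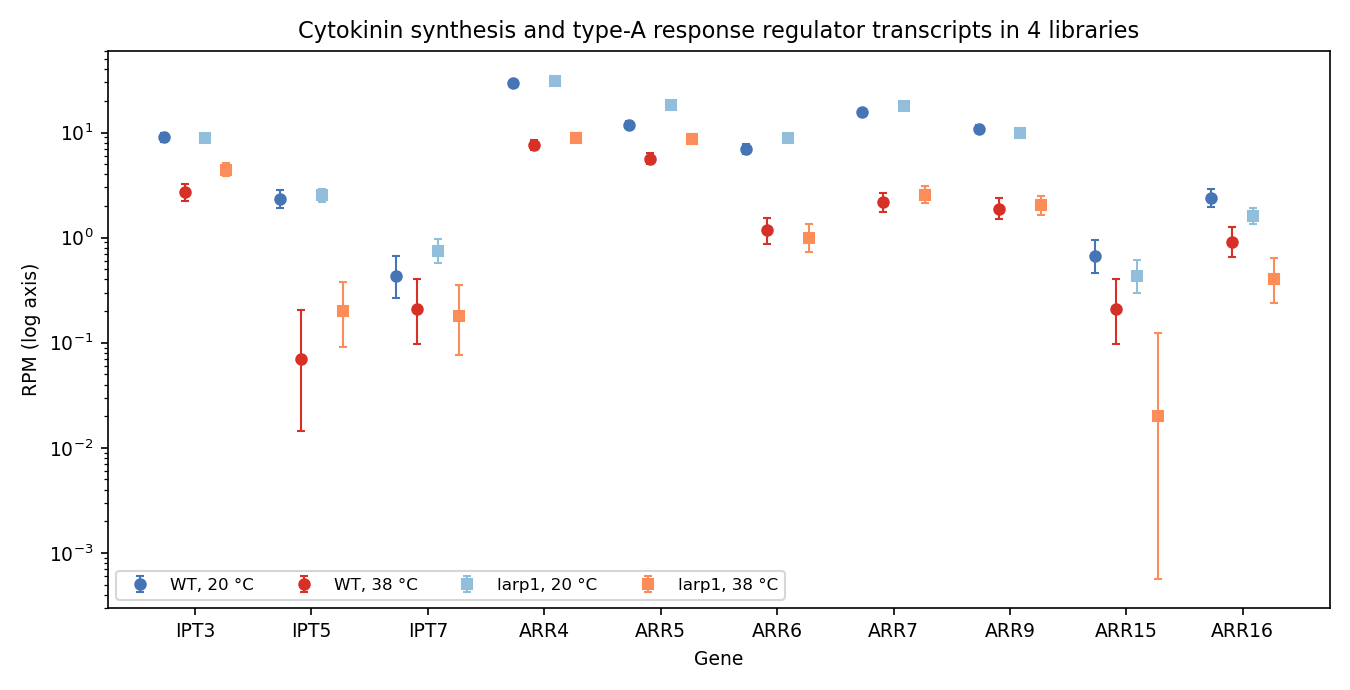
RPM of each of the 10 genes (x axis) in the 4 libraries, on a log axis; points are 1 library each and bars are 95% counting intervals. Both 38 °C points lie below both 20 °C points in every gene; intervals of the 2 temperatures meet only in IPT7 and ARR15, which have few reads.

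The 3 synthesis genes were lower to unequal extents. IPT5, a synthesis gene known from root cap, lateral root primordia and auxin response, had almost no reads after heat. It stood at 2.34 RPM (108 reads) in WT at 20 °C and 0.07 RPM (3 reads) at 38 °C, and at 2.53 RPM (188 reads) and 0.20 RPM (9 reads) in larp1. It was lower by a ratio of 33.4 [11.1, 164] in WT and of 12.7 [6.50, 28.0] in larp1. Of the genes compared in WT, 0.0722% had a lower log2 ratio than IPT5. It reached the minimum through the 20 °C library alone, so that place describes the gene and supports nothing further. With 0.5 RPM added to each value, its log2 ratio in WT was -2.32 in place of -4.66.

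IPT3, which is expressed in phloem and is induced by nitrate, had the most reads of the 3 synthesis members. It stood at 9.05 RPM in WT at 20 °C and 2.72 RPM at 38 °C, a 3.33-fold lower level [2.70, 4.12]. In larp1 it stood at 8.79 and 4.43 RPM, a 1.98-fold lower level [1.69, 2.34] that lies just under the 2-fold threshold. IPT3 was thus the only member compared in larp1 that was not called lower there. The difference of its heat responses, larp1 minus WT, was 0.74 on the log2 scale [0.37, 1.11], an interval that excludes 0 for a difference below 2-fold. Its levels were 1.63 times as high in larp1 as in WT at 38 °C [1.29, 2.06] and 0.971 times as high at 20 °C [0.857, 1.10].

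IPT7, a further adenylate isopentenyltransferase, was near the limit of these libraries. It held 20 and 9 reads in WT at 20 and 38 °C, 0.43 and 0.21 RPM, and its ratio of 2.05 [0.895, 5.13] left the direction unsettled in WT. In larp1 it held 56 and 8 reads, 0.75 and 0.18 RPM, a 4.17-fold lower level [2.0, 10.3]. The 3 synthesis genes are the members with 1 exon entry, and among compared genes with 1 distinct entry 49.2% were called lower and 8.75% higher in WT, and 42.1% and 8.38% in larp1. Beside that, 2 of 2 synthesis genes compared in WT and 2 of 3 in larp1 were lower.

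**Figure D2:**
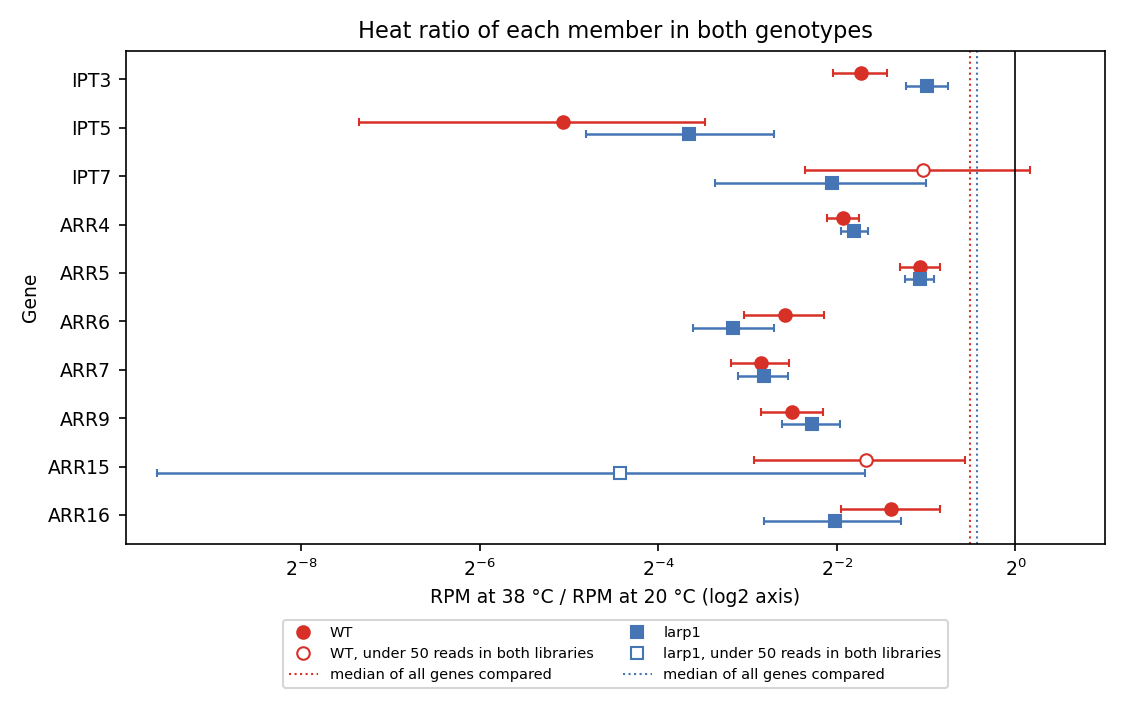
Ratio of RPM at 38 °C over 20 °C for each gene in WT and in larp1, on a log2 axis with 95% counting intervals; open symbols mark genes under 50 reads in both libraries of the comparison, and dotted lines the median of all genes compared. IPT5 lies farthest to the left in WT at a ratio of 0.0299, and ARR5 lies at 0.478 in WT and 0.476 in larp1.

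Among the type-A regulators, ARR7, ARR6 and ARR9 were lowered most of those with more than 50 reads at 20 °C. ARR7, a regulator linked to the shoot and root meristems, measured 15.6 RPM in WT at 20 °C and 2.16 RPM at 38 °C; the larp1 values were 18.1 and 2.57 RPM. It was 7.23-fold lower [5.82, 9.09] in WT and 7.03-fold lower [5.83, 8.62] in larp1. ARR6 went from 7.02 to 1.17 RPM with heat in WT and from 8.84 to 0.99 RPM in larp1, 6.00-fold [4.43, 8.22] and 8.93-fold [6.51, 12.2] lower. ARR9 went from 10.7 to 1.89 RPM in WT and from 9.96 to 2.05 RPM in larp1, 5.67-fold [4.45, 7.23] and 4.86-fold [3.91, 6.11] lower. The intervals of these 3 genes overlap with their neighbours in that order in WT, so their order among themselves is within counting error.

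ARR4, a regulator that also interacts with phytochrome B, had the most reads of the 10 genes. It stood at 29.3 and 7.66 RPM in WT at 20 and 38 °C, 3.83-fold lower [3.38, 4.32]. In larp1 it stood at 31.1 and 8.92 RPM, 3.49-fold lower [3.14, 3.89]. Its WT interval lies wholly below that of ARR9 and wholly above that of ARR5. ARR4 therefore sits between the strongly lowered ARR7, ARR6 and ARR9 and the mildly lowered ARR5.

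ARR5, the cytokinin response gene whose promoter drives a common reporter line, was the type-A regulator least lowered. It went from 11.8 to 5.65 RPM in WT, 2.09-fold lower [1.79, 2.44], and from 18.4 to 8.75 RPM in larp1, 2.10-fold lower [1.88, 2.36]. In WT the ARR5 interval overlaps those of ARR16 [1.80, 3.86] and ARR15 [1.48, 7.61], so its last place there is within counting error. The ARR5 heat responses of both genotypes differed by -0.01 on the log2 scale [-0.28, 0.26]. ARR5 made up 15.3% of the summed RPM of the 7 regulators in WT at 20 °C and 28.8% at 38 °C, and 20.8% and 36.9% in larp1. The summed RPM itself went from 77.6 to 19.7 in WT and from 88.4 to 23.7 in larp1. ARR6, from the same close pair of paralogs as ARR5, was lowered to a greater extent, and their intervals do not overlap in either genotype. How reads that match both paralogs were placed is not given in the sources used here.

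Of the type-A members, ARR16 and ARR15 had the fewest reads. ARR16 stood at 2.40 and 0.91 RPM in WT at 20 and 38 °C, 2.64-fold lower [1.80, 3.86], and at 1.62 and 0.40 RPM in larp1, 4.05-fold lower [2.44, 7.02]. Its exon entries form 2 near-equal runs, which may count the same reads, and with 1 run alone, an alternative chosen after seeing the data, the ratios were 2.67 [1.58, 4.57] and 4.25 [2.09, 9.67]. ARR15 held 31 and 9 reads in WT, 0.67 and 0.21 RPM, a ratio of 3.19 [1.48, 7.61]. In larp1 it held 32 reads and 1 read, 0.43 and 0.02 RPM, a ratio of 21.5 [3.23, 787]. ARR15 did not reach the minimum in any comparison.

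The size of these ratios depends on how libraries are scaled. TMM scaling, a trimmed mean over genes, moved the median of all genes compared from -0.51 to 0.02 in WT and from -0.43 to -0.00 in larp1. Relative to the median of all genes under RPM, the members' log2 ratios in WT were -4.14 for IPT5, -2.33 for ARR7, -2.04 for ARR6, -1.97 for ARR9, -1.42 for ARR4, -1.21 for IPT3, -0.85 for ARR16 and -0.55 for ARR5. Every member stayed below 0 in both genotypes under RPM, TMM, median-of-ratios and organelle-free scaling. With TMM, ARR5 at -0.52 and ARR16 at -0.82 no longer passed 2-fold in WT, which leaves 6 members called; in larp1 ARR5, at -0.64, was lost and 7 members were called. All genes called higher and lower numbered 824 and 4841 in WT under RPM and 1405 and 2079 with TMM, and 857 and 4051 in larp1 under RPM and 1306 and 1942 with TMM.

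Members called lower in both genotypes numbered 7 of the 8 compared in both, beside 16.1% of 19350 genes. IPT5, ARR4, ARR5, ARR6, ARR7, ARR9 and ARR16 are those 7. Of them, IPT5 and ARR16 in both genotypes, and ARR6 in larp1, reached the minimum through the unheated library alone. Such genes enter only because they are high there. The overlap therefore describes the members and supports nothing further, though the heat comparisons use separate libraries. No member was called in the difference of heat responses, beside 2.07% of genes with a positive and 0.651% with a negative call. The member differences ranged from -0.58 for ARR16 to 1.14 for IPT5 among those compared, against a median of 0.10 over all genes. IPT5 exceeds 2-fold but was not called, because its interval of [-0.56, 2.85], from 3 and 9 reads at 38 °C, includes 0. For ARR4 and ARR7 the differences were 0.13 [-0.10, 0.36] and 0.03 [-0.38, 0.45], both under 2-fold at either bound. Under other scalings the sign of the ARR5 and ARR7 differences flips around 0.

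The authors' deposited table of genes down with heat holds 7 of the 10 members. ARR4, ARR5, ARR6, ARR7, ARR9 and IPT5 are in the authors' deposited table as down in both genotypes, and IPT3 as down in WT and not in larp1, with ratios of 38 °C over 20 °C of 0.301 and 0.504. IPT7, ARR15 and ARR16 are in none of its lists, and no member is among the genes listed as up.

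Between genotypes no member was called. None of the 9 members compared at 20 °C was called, beside 3.48% of genes called higher and 0.498% called lower in larp1. ARR5 was 1.55 times as high in larp1 as in WT [1.41, 1.72], and IPT7 1.74 times on 20 and 56 reads [1.02, 3.05]. At 38 °C ARR5 was again 1.55 times as high [1.31, 1.82]. ARR6 was 1.26 times [1.10, 1.44] and ARR7 1.16 times as high [1.06, 1.27] at 20 °C, while ARR4, ARR9, IPT3 and IPT5 had intervals that include no difference.

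ARR16 was on the other side, at 0.675 times the WT level at 20 °C [0.517, 0.883]. ARR15 stood at 0.642 times WT there [0.378, 1.08], on 31 and 32 reads. At 38 °C 4 members were under the minimum and not compared. Of these, ARR16 lay at 0.440 times WT [0.236, 0.784] on 39 and 18 reads, and ARR15 at 0.0952 times [0.0024, 0.760] on 9 reads and 1 read, both with intervals that leave out equality. IPT5 lay at 2.86 times WT [0.710, 16.3] on 3 and 9 reads, and IPT7 at 0.857 times [0.283, 2.46] on 9 and 8 reads. None of the 6 members compared at 38 °C was called, beside 3.92% of genes called higher and 0.200% called lower. ARR9 lay at 1.08 times WT there [0.790, 1.47], and its sign flips with the scaling.

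**Figure D3:**
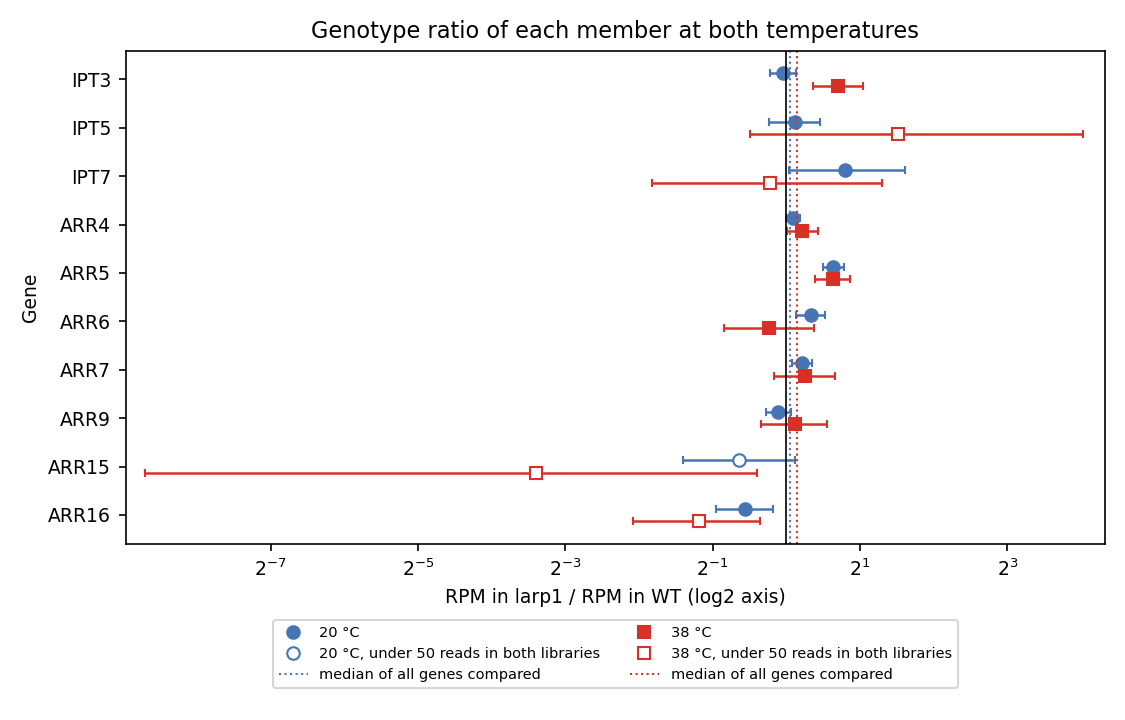
Ratio of RPM in larp1 over WT for each gene at 20 °C and at 38 °C, on a log2 axis with 95% counting intervals; open symbols mark genes under 50 reads in both libraries, and dotted lines the median of all genes compared. ARR5 lies at 1.55 at both temperatures, and ARR16 lies below 1 at both.

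The exon entries of a member mostly moved together. The members have 36 distinct entries; 11 of them held at least 50 reads in a WT library and 14 in a larp1 library, and all of these were lower after heat, at 2.99% to 55.9% of the 20 °C value in WT and 7.91% to 63.3% in larp1. As for the genes, entries that reached the minimum only at 20 °C are part of that count. Being lower was also common: 15913 of 19387 genes compared in WT and 16299 of 20477 in larp1 had a log2 ratio below 0. Entry positions are not given in the table, so the entries cannot be placed on the transcripts.

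ARR4 was uneven. Its 2 main entries went from 28.6 to 6.68 RPM in WT and from 30.4 to 8.28 RPM in larp1. Its 3 minor entries together went from 0.75 to 0.98 RPM in WT, a ratio of 1.31 [0.829, 2.16], and from 0.75 to 0.64 RPM in larp1, a ratio of 0.853 [0.528, 1.37]. Those ratios lie above those of the main entries, 0.234 [0.205, 0.266] and 0.273 [0.244, 0.304]. The split into main and minor entries was made after their values were seen, and the minor entries held between 29 and 56 reads a library.

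ARR5 and ARR16 differed between entries as well, and these entries too were picked after their values were seen. In larp1 entry 1 of ARR5 kept 42.0% of its 20 °C value [36.5, 48.2] and entry 3 63.3% [51.1, 78.0]; in WT the values were 46.2% [38.6, 55.2] and 55.9% [40.3, 76.8]. For ARR16 at 20 °C, entry 1 measured 0.61 RPM in WT against 0.66 RPM in the mutant, whereas entry 4 measured 0.48 RPM (22 reads) against 0.11 RPM (8 reads). The lower ARR16 sum in larp1 at 20 °C lies in entry 4 and the near-equal entry 8, and with the highest entry alone the log2 ratio was 0.00.

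In the TAIR10.1 annotation 2 members overlap another gene: ARR6 overlaps the protein-coding AT5G62910 and ARR9 the long non-coding AT3G08825. Without a stated use of strand, reads in such overlaps cannot be told apart. AT5G62910 went from 15.0 to 17.2 RPM with heat in WT and from 16.8 to 19.8 RPM in larp1, against the lower ARR6 values.

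The rest of the cytokinin pathway was divided by role. Of 56 further genes on 9 lists, 48 are in the table; in WT 37 were compared, of which 12 were called lower and 4 higher, and in larp1 39 were compared, of which 12 were lower and 5 higher. Of all genes compared, 25.0% were called lower and 4.25% higher in WT, and 19.8% and 4.19% in larp1. With TMM or median-of-ratios scaling 7 were lower in WT and 6 in larp1. Those scalings also lowered the count over all genes. With TMM it was 2079 of 19387 genes compared in WT and 1942 of 20477 in larp1. With median-of-ratios scaling it was 2095 and 1907.

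Most genes of signal perception and relay were not called, as held for all genes compared, of which 25.0% were lower in WT. Of the 3 receptors 1 was called lower in WT, AHK4 (AT2G01830), from 14.5 to 6.34 RPM, a call lost with TMM; the one with the highest RPM, AHK3 (AT1G27320), went from 45.4 to 40.6 RPM. Of 5 phosphotransfer proteins compared 1 was lower, AHP4 (AT3G16360), from 56 to 17 reads, while AHP2 (AT3G29350) went from 12.8 to 10.8 RPM. Of 6 type-B regulators compared, the activators of type-A genes, 1 was lower in WT, ARR10 (AT4G31920), from 16.9 to 7.70 RPM, also lost with TMM. ARR1 (AT3G16857), the type-B regulator with the highest RPM, went from 62.2 to 52.9 RPM in WT and from 63.4 to 64.1 RPM in larp1. The median log2 ratio in WT was -0.87 for receptors, -0.66 for phosphotransfer proteins and -0.42 for type-B regulators, beside -0.51 over all genes compared. In larp1, 0 of 3 receptors, 1 of 5 phosphotransfer proteins and 1 of 6 type-B regulators were called lower, beside 19.8% of all genes. These were AHP4, from 72 to 19 reads, and ARR14 (AT2G01760), from 4.43 to 2.0 RPM, both lost with TMM. ARR14 was named after its values were seen.

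The 4 KMD genes encode F-box proteins that target type-B regulators for degradation, and they went the other way. In both genotypes 3 of 4 were called higher with heat, beside 4.25% of genes in WT and 4.19% in larp1. KMD1 (AT1G80440) went from 27.2 to 106.9 RPM in WT and from 30.5 to 123.8 RPM in larp1. KMD3 (AT2G44130) went from 9.07 to 42.2 RPM in WT and from 10.1 to 50.2 RPM in larp1, 4.65 and 4.97 times as high. KMD4 (AT3G59940) went from 33.9 to 88.6 RPM in WT and from 21.4 to 106.3 RPM in larp1. KMD3 and KMD4 overlap other genes in the TAIR10.1 annotation, and the KMD3 entry carries the name of its neighbour AT2G44140.

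Cytokinin response factors (CRF), transcription factors that act beside the type-B regulators, were called lower in 5 of 6 cases in each genotype, beside 25.0% of all genes in WT and 19.8% in larp1. With TMM 4 of 6 were lower in each, beside 2079 of 19387 genes in WT and 1942 of 20477 in larp1. CRF1 (AT4G11140), named after its values were seen, was lost in WT at -0.64, and CRF5 in larp1 at -0.59. In WT, CRF3 (AT5G53290) went from 7.77 to 0.89 RPM, CRF5 (AT2G46310) from 4.97 to 0.66 RPM, CRF4 (AT4G27950) from 6.10 to 0.99 RPM and CRF2 (AT4G23750) from 29.7 to 8.78 RPM. The exception was CRF6 (AT3G61630), at 11.9 and 14.1 RPM in WT and 38.2 and 49.7 RPM in larp1; its mean over the 4 libraries is the highest of the list through larp1, while CRF2 was higher in WT at 20 °C. CRF6 was higher in larp1 than in WT, 3.21 times at 20 °C [2.93, 3.52] and 3.52 times at 38 °C [3.22, 3.86]. CRF5 was also higher in larp1, 2.45 times at 20 °C [2.12, 2.84] and 9.08 times at 38 °C [6.16, 14], and its heat responses differed by 1.85 on the log2 scale [1.26, 2.45]. These were the 2 further cytokinin genes called between genotypes at either temperature.

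Breakdown enzymes moved both ways. CKX4 (AT4G29740), with the highest RPM, went from 46.2 to 14.7 RPM in WT and from 53.3 to 12.9 RPM in larp1. CKX7 (AT5G21482), from 10.2 to 4.33 RPM, and CKX1 (AT2G41510), from 1.09 to 0.42 RPM, were called lower in WT too, calls lost with TMM. CKX6 (AT3G63440) was higher, from 7.85 to 15.7 RPM in WT and from 7.13 to 19.4 RPM in larp1, and its entries carry the name of the overlapping AT3G63445. In WT the CKX6 call is lost at 0.93 with organelle-free scaling and with the highest entry alone, and at 0.96 with 0.5 RPM added to each value. In larp1 CKX6 stayed called under each of these settings.

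Activating enzymes had a median log2 ratio of 0.05 in WT, with none of 5 compared called; LOG1 (AT2G28305), with the highest RPM, went from 22.3 to 13.8 RPM. In larp1 1 of 6 was called higher, the hydroxylase gene CYP735A2 (AT1G67110), from 0.88 to 1.87 RPM, against 1.48 and 1.54 RPM in WT. Its heat responses differed by 1.04 on the log2 scale [0.37, 1.72], which was 0.93 with TMM and then not called. With the highest entry alone the difference was 0.60, and with 0.5 RPM added to each value 0.75, neither called. The CYP735A2 heat call in larp1 was lost under both settings too, at 0.78 and 0.79. LOG6 (AT5G03270), with 69 and 109 reads in WT, was called higher there with TMM, at 1.30. CYP735A2 and LOG6 were named after their values were seen. Among synthesis genes outside the members, neither of the 2 compared was called; both modify tRNA, and IPT9 (AT5G20040), with the higher RPM, went from 10.5 to 7.27 RPM. Of the type-A regulators outside the members, ARR8 (AT2G41310) was 5.83-fold lower in WT and 2.91-fold lower in larp1, from 8.81 to 1.51 RPM and from 7.42 to 2.55 RPM. Its heat responses differed by 1.01 on the log2 scale [0.53, 1.48], which was 0.90 with TMM and no longer passed 2-fold. ARR8 overlaps AT2G09250 in the TAIR10.1 annotation.

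**Figure D4:**
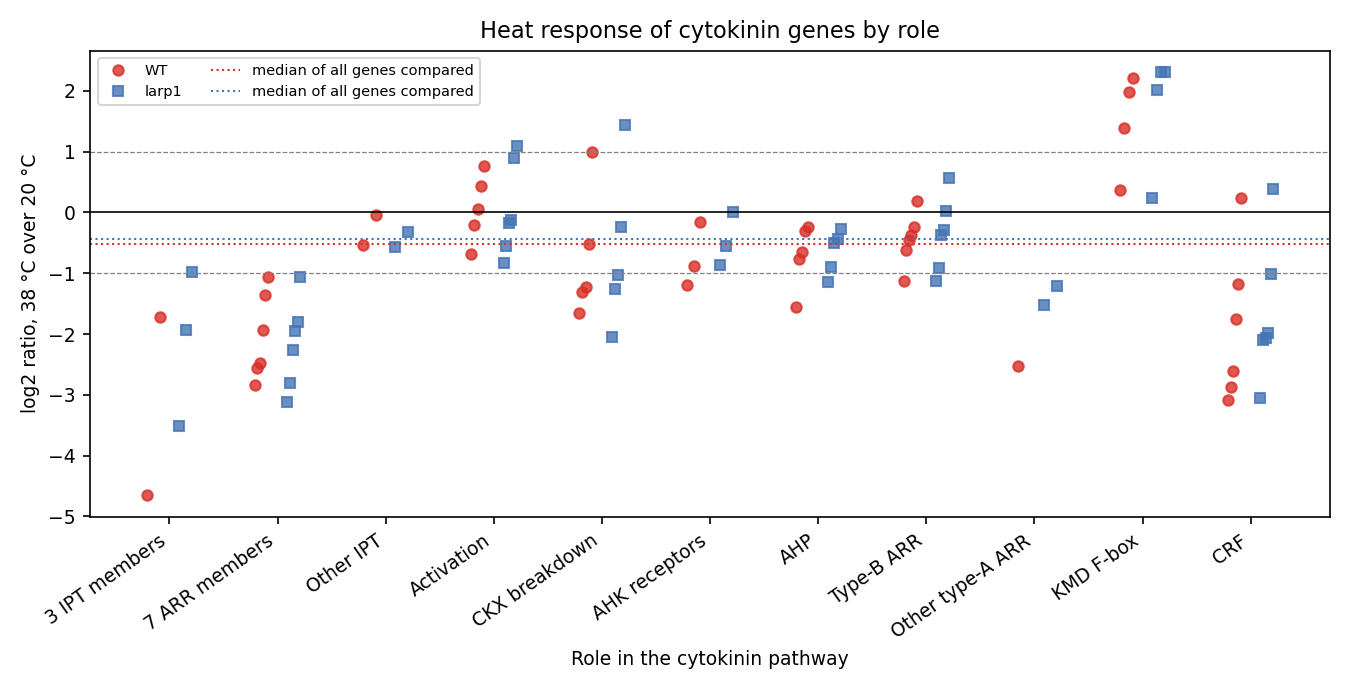
Log2 ratio of RPM at 38 °C over 20 °C for every cytokinin gene compared, by role, in WT and in larp1; each point is 1 gene, dashed lines mark 2-fold and dotted lines the median of all genes compared. All points of the ARR members lie below -1, 3 of the 4 KMD genes lie above 1 in each genotype, and the median of the type-B regulators is -0.42 in WT.

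Several members are known from root and vascular tissue, so markers of tissues were measured beside them. Summed RPM of 9 root markers went from 67.2 to 29.4 in WT and from 64.0 to 34.7 in larp1, 2.28-fold and 1.85-fold lower. In WT 3 of 6 compared were called lower and 1 higher, beside 25.0% and 4.25% of all genes. In larp1 5 of 8 were called lower and 1 higher, beside 19.8% and 4.19% of all genes. None of the root, vascular and shoot meristem markers measured was at 0 in any library. The 1 called higher was WOX5 (AT3G11260), of the quiescent centre, from 0.60 to 2.48 RPM in WT and from 0.62 to 3.05 RPM in larp1. In WT, SCR (AT3G54220), of the endodermis, went from 29.3 to 6.58 RPM. EXPA7 (AT1G12560), of root hairs, went from 5.16 to 4.62 RPM there and CASP1 (AT2G36100), of the endodermal barrier, from 15.1 to 10.2 RPM. These were picked after their values were seen, and the remaining root markers were lower in WT too. SHR (AT4G37650) went from 10.8 to 3.52 RPM and COBL9 (AT5G49270) from 4.39 to 1.17 RPM. RHD6 (AT1G66470) went from 0.97 to 0.56 RPM. PLT1 (AT3G20840) went from 0.59 to 0.21 RPM and PLT2 (AT1G51190) from 0.34 to 0.12 RPM, on few reads. Summed RPM of 4 vascular markers went from 154.7 to 109.4 in WT and from 145.6 to 131.9 in larp1. Of these, 0 of 3 compared in WT and 1 of 4 in larp1 were called lower, beside 25.0% and 19.8% of all genes. STM (AT1G62360), the 1 shoot meristem marker measured, stood at 2.45 and 2.12 RPM in WT. WUS and CLV3, the other shoot meristem markers listed, have no entries and were not measured. The 7 type-A members were 3.95-fold lower in WT and 3.73-fold lower in larp1 as a sum; the part of tissue shares in this was not tested.

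The genes closest to IPT5 and ARR6, the synthesis and type-A members with the widest log2 range over the 4 libraries among those with 50 reads in a library (which leaves out ARR15), were sought among 20514 genes by the Euclidean distance between centred log2 profiles. For IPT5 the 3 nearest were AT2G39560, annotated as a putative membrane lipoprotein, at 0.30, AT2G21200 at 0.32 and AT2G02610, of the cysteine/histidine-rich C1 family, at 0.37. AT2G39560 went from 1.85 to 0.05 RPM in WT and from 1.80 to 0.11 RPM in larp1. For ARR6 they were AT1G62630, of a disease resistance family, at 0.13, AT3G14330, a tetratricopeptide-repeat protein gene, at 0.14 and AT2G36500 at 0.16. No other gene of the cytokinin lists is among these 6, and a likeness over 4 libraries is a description only.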

How the data were processed

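The main deposited table lists 181379 exon entries of 25819 genes without coordinates, 132172 of them distinct within their gene. Its values are named RPM per the file headers; the columns sum to 1056660 to 1090380, above what RPM allows, so they were treated as a signal made by the authors. The spacing of low values gave what 1 read is worth, from 0.0134 RPM (larp1, 20 °C) to 0.0235 RPM (WT, 38 °C), and so the reads behind each value. Where entries overlap, reads may be counted repeatedly and intervals are then too narrow. The submitters' processing notes name BWA 0.5.9 and TAIR10, but no source used here gives the counter or the strand setting. A duplex-specific nuclease step depleted rRNA, per the labels' protocols. The column of larp1 at 20 °C carries an unexplained suffix. The authors' deposited gene lists give a ratio (fold) of summed signal at 38 over 20 °C.

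To form log2 ratios, the worth of 1 read in its library was added to each RPM value, while levels, ratios and their intervals carry no pseudocount. For genes with few reads that addition can understate a change. It can also shift the log2 ratio in 1 direction, since 1 read is worth unequal RPM between libraries. Ratios have conditional binomial (Clopper-Pearson) intervals, levels exact Poisson intervals, and differences of heat responses normal intervals on the log2 scale; PCR copies are not independent molecules. With 1 library per group no test was run. The calling was tested on simulated data that held counting error alone, with 4-fold changes planted in genes with many reads. That test says nothing of spread between plants, shifts in library composition, genes with few reads or changes near 2-fold. The planned design assumed exon sums per gene; the members, lists and rules were chosen with earlier results of these data known. Named pathway genes are those called in WT heat (the 4 largest where more were) plus the one with the highest mean RPM of each list. Of the listed genes, those without entries in the table (such as IPT4 and CKX2) were not analysed here. Alternatives were TMM, median-of-ratios and organelle-free scaling, all entries or the highest entry, a pseudocount of 0.5 RPM, minimums of 10 reads or none, and a 3-fold threshold. A TAIR10.1 gene table served only for overlaps; its build differs from TAIR10, so no coordinates or sequences are given. Software was scipy 1.17.1, pandas 2.3.3, numpy 2.4.6 and matplotlib 3.10.9 under Python 3.11.15.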

Additional observations from a re-analysis of the deposited data

How the results depend on the processing

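No paired analysis was possible because each group holds 1 library. Members called lower numbered 6 to 9 in WT and 7 to 9 in larp1 over all alternatives, and none was ever called higher with heat; none was called in the difference of heat responses or between genotypes at 20 °C. At 38 °C, larp1 had 1 member called lower with a minimum of 10 reads (ARR16) and 2 with no minimum (ARR15 and ARR16), in place of 0. Among all genes, those called lower went from 4841 to 2079 in WT and from 4051 to 1942 in larp1 with TMM, and those called higher from 824 to 1405 and from 857 to 1306. At 3-fold, 1925 and 1448 genes were lower and 540 and 571 higher. IPT7 in larp1 was not called with the pseudocount of 0.5 RPM, and IPT3 in larp1 was called with organelle-free scaling. The same pseudocount of 0.5 RPM moved IPT5 from -4.66 to -2.32 in WT and ARR15 from -3.32 to -0.83 in larp1.

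With TMM scaling the summed RPM of the 10 members was 32.9 in place of 22.7 in WT at 38 °C, 97.2 in place of 100.5 in larp1 at 20 °C and 37.1 in place of 28.5 in larp1 at 38 °C. Other cytokinin genes called lower with heat numbered 12 in each genotype; they were 7 in WT and 6 in larp1 under TMM and median-of-ratios scaling, 6 and 5 at 3-fold, and 7 in larp1 with the pseudocount of 0.5 RPM. Those called higher went from 4 to 2 in WT and from 5 to 3 in larp1 at 3-fold. Between genotypes at 20 °C, 2 called higher became 6 with a minimum of 10 reads or none and 1 at 3-fold. In the difference of heat responses, 3 positive calls became 1 under TMM, median-of-ratios, the pseudocount of 0.5 RPM and 3-fold, and 0 negative calls became 1 under TMM, median-of-ratios and no minimum. Genes under 50 reads, ARR15 and IPT7 in WT among them, are limited by depth.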
